A study of Mus musculus with 12 samples.

Results

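The genes described here are 10 genes of motor neurons and of acetylcholine signalling: Chat, Slc18a3, Slc5a7, Ache, Chodl, Isl1, Mnx1, Mmp9, Vipr2 and Esrrg. They were chosen with earlier results of these data known. They were taken by symbol, as the entries of the deposited gene count tables that carry these names. All 10 were found among the 56953 genes of each table. All 10 passed the filter on low counts that left 19278 genes tested. RNA came from whole spinal cords of mice, and 12 libraries of 1 animal each fell into 4 groups of 3. The first group holds Ddx20 conditional knockout (cKO) mice, made from Ddx20flox/flox mice crossed with Plp-CreER mice, 4.5 weeks after tamoxifen, and it is set against control mice at 4.5 weeks after tamoxifen. The other groups are cKO mice and control mice at 4 weeks after tamoxifen. Plp-CreER is a Cre recombinase that becomes active with tamoxifen and is driven by a promoter of myelin-forming cells, so recombination is directed at oligodendrocytes and other myelinating glia and not at neurons. The alleles of the control mice and the age of the animals are not given in the sources used here.

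Acetylcholine is the transmitter by which spinal motor neurons drive muscle. It is made from choline by choline acetyltransferase (Chat), loaded into vesicles by the vesicular acetylcholine transporter (Slc18a3) and broken down in the synaptic cleft by acetylcholinesterase (Ache), and the freed choline is taken up again by the high-affinity choline transporter (Slc5a7). In the spinal cord these genes are also used by cholinergic interneurons and by preganglionic neurons of the autonomic system. The homeodomain transcription factors Isl1 and Mnx1 define motor neurons during development. Chodl and Mmp9 mark alpha motor neurons of fast motor units in mice, Vipr2 codes for a receptor of vasoactive intestinal peptide found in alpha motor neurons, and the nuclear receptor Esrrg is high in gamma motor neurons, which serve muscle spindles.

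Promoter windows from RefSeq on GRCm38.p6, running from 250 bases before to 50 bases after the annotated start, were matched by symbol for 9 of the 10 genes, with 12 windows in all. Mmp9 had no entry. The Chat and Slc18a3 windows are shown because the Slc18a3 gene lies inside the Chat gene on the same strand, with the starts of the genes 1059 bases apart. The Mnx1 and Chodl windows are shown beside them, as a motor neuron transcription factor and as the gene with the deepest fall described below. The windows lie at chr14:32465860-32466159 on the minus strand for Chat, chr14:32464801-32465100 on the minus strand for Slc18a3, chr5:29478421-29478720 on the minus strand for Mnx1 and chr16:78930698-78930997 on the plus strand for Chodl. Capitals mark matches, on either strand, to the CCAAT box (CCAAT) or to the Sp box (GGGCGG).
Chat: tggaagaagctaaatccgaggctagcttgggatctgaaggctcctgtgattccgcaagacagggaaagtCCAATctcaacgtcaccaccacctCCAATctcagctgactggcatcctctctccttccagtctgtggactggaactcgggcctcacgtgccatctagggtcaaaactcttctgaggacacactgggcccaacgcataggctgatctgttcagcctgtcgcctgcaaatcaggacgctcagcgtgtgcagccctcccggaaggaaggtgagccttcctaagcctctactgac
Slc18a3: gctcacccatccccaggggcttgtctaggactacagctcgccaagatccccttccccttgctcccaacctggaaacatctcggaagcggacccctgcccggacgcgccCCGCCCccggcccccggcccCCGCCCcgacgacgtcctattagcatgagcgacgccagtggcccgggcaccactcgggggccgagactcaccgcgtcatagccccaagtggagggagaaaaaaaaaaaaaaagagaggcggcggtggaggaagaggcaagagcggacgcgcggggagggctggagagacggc
Mnx1: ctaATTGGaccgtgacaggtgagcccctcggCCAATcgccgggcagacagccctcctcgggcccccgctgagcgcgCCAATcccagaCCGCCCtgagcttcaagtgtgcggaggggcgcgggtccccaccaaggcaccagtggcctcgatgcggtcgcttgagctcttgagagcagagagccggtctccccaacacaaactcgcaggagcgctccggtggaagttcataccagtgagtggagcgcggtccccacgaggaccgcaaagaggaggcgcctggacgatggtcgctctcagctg
Chodl: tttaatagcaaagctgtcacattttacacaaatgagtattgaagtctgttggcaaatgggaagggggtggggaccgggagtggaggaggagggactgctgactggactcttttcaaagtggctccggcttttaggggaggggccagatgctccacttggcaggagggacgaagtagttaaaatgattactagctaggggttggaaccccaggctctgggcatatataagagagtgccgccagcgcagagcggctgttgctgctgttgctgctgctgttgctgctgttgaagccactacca
In all, 6 motifs were searched on both strands, and no matches to different motifs overlapped in the windows of these genes. CCAAT was present in 4 of the 12 windows (genes Chat, Mnx1, Isl1 and Esrrg), against 37.4% of all 32817 windows of the same length. GGGCGG was present in 6 of 12 windows (genes Slc18a3, Mnx1, Ache, Vipr2 and Esrrg), against 35.6% of all windows. TATAAA was present in 2 windows, 1 of Slc5a7 and 1 of the 4 windows of Esrrg, against 13.6% of all windows. The binding sequence of oestrogen-related receptors (TNAAGGTCA, in 1.28% of all windows), the homeodomain core (TAATTA, 5.3%) and the cyclic AMP response element (TGACGTCA, 1.79%) matched none of the 12 windows. A match or its absence describes these letters only.

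Libraries held 33104560 to 47677267 estimated counts, and levels are given below as counts per 1000000 counts of the library (CPM), its total scaled by TMM. Ddx20, the targeted gene, measured 12.4, 11.1 and 13.3 CPM at 4.5 weeks in libraries labelled cKO, against 9.16, 10.6 and 9.71 CPM in control libraries, and 10.2, 11.1 and 9.9 CPM in libraries labelled cKO at 4 weeks, against 11, 9.78 and 11.1 CPM in control libraries. It was thus not lower in whole cord. At 4.5 weeks it was higher by edgeR's quasi-likelihood test (log2 fold change 0.33, SE 0.102, adjusted p 0.013). At 4 weeks it did not differ by that test (-0.03, adjusted p 0.84). The genotype is given here as labelled. By their sex-linked transcripts all 6 libraries of 4.5 weeks came from females, the 3 control libraries of 4 weeks came from males, and at 4 weeks libraries 1 and 2 labelled cKO came from females and library 3 from a male. At 4.5 weeks, control library 1 held transcripts of sensory ganglia and nerve roots and control library 2 transcripts of skeletal muscle. At 4 weeks the summed level of 6 Schwann cell markers was 35.5, 53.5 and 8.88 CPM in libraries labelled cKO, against 71.5, 158 and 80.3 CPM in control libraries. That of 8 skeletal muscle markers was 3.24, 4.97 and 43.3 CPM in libraries labelled cKO, against 1.8, 14.3 and 2.3 CPM in control libraries, so that library 3 labelled cKO was the highest. Their part in the 4-week results was not tested beyond leaving out each library in turn. Values without these libraries are given where they bear on a result.

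All 10 genes were lower at 4.5 weeks in the cords labelled cKO. Their levels were between 15.8% (Chodl) and 38% (Isl1) of the control mean. Control library 1 raised that mean for Isl1, whose log2 fold change was -1.39 with it and -0.55 without it. For each of the 10 the highest library labelled cKO was below the lowest control library. Such a separation was seen in 35.6% of all genes tested. Called here means an adjusted p below 0.05 in edgeR's quasi-likelihood test with Benjamini-Hochberg adjustment over all genes tested. By that rule 10 of 10 were called lower at 4.5 weeks, where 32.6% of all genes tested were called lower, 33.3% higher and 65.9% in either direction. The median log2 fold change of the 10 genes was -2.10, against 0.02 for all genes tested. At 4 weeks 3 of 10 were called, all lower (Chodl, Esrrg and Ache), where 17.2% of all genes were called lower, 20.1% higher and 37.2% in either direction. The median was then -0.19, against 0.01 for all genes. For 4 of the 10 every library labelled cKO was below every control library at 4 weeks, as for 23.1% of all genes tested. The 10 genes, and the lists further below, were chosen with earlier results of these data known. Their counts and medians beside those of all genes thus describe them and do not test them as a set. In whole cord, fewer cells of a type, less RNA per cell and a larger share of RNA from other cells cannot be told apart.

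**Figure D1:**
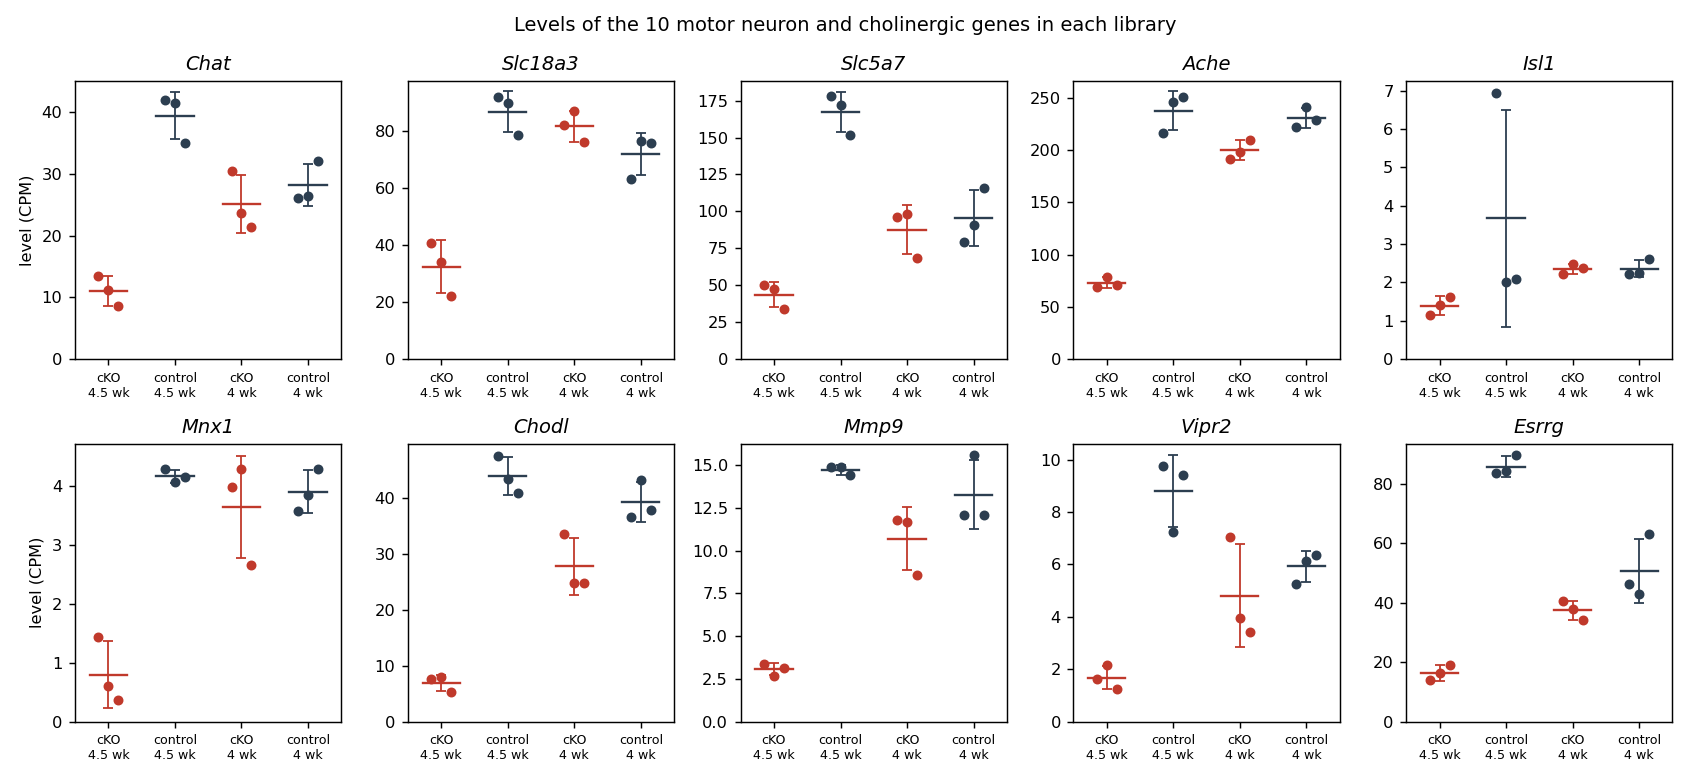
Level (CPM, linear axis from 0) of each of the 10 genes in every library of the 4 groups, with points for libraries, long bars for means and error bars for SD (n = 3). At 4.5 weeks every point of the cords labelled cKO lies below every control point in all 10 panels, while at 4 weeks the groups overlap in 6 panels.

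Chat, which makes acetylcholine, had 13.4, 11.2 and 8.53 CPM in the libraries that were labelled cKO at 4.5 weeks, against 41.9, 41.4 and 35 CPM in the control libraries. The groups were far apart, with means of 11 ± 2.45 CPM in cords labelled cKO and 39.4 ± 3.83 CPM in control cords (SD, n = 3 each). The log2 fold change was -1.83 ± 0.167 (SE), with an adjusted p of 6.7e-07. At 4 weeks Chat had 30.4, 23.6 and 21.4 CPM in libraries labelled cKO, against 26, 26.4 and 32.1 CPM in control libraries. The groups overlapped there, and the log2 fold change of -0.17 ± 0.161 was not called (adjusted p 0.46, with a 95% interval of -0.51 to 0.18).

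Slc18a3, the vesicular transporter, had 40.7, 34.1 and 22.3 CPM in libraries labelled cKO at 4.5 weeks, against 92, 90.1 and 78.7 CPM in control libraries. Every control library was higher, and the log2 fold change was -1.42 ± 0.165 (adjusted p 6.2e-06). It was the only 1 of the 10 genes with a fold change above 0 at 4 weeks, with 82.2, 87.1 and 76.3 CPM in libraries labelled cKO and 63.4, 76.8 and 76 CPM in control libraries. The groups overlapped only between library 3 labelled cKO and control library 2, and the log2 difference of 0.18 ± 0.16 was not called (adjusted p 0.4). Slc18a3 lies within Chat on the same strand, and the genes share no exon bases in GENCODE M21. That is not the build of the deposited tables, so how reads were divided between the genes rests on the authors' count estimation. Summed as 1 feature, Chat and Slc18a3 were lower at 4.5 weeks by a log2 fold change of -1.54 (adjusted p 2.02e-06).

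Slc5a7, which returns choline to the terminal, had 49.9, 47.4 and 33.7 CPM in libraries labelled cKO at 4.5 weeks, against 178, 172 and 152 CPM in control libraries. The groups were well separated, and the log2 fold change was -1.94 ± 0.179 (adjusted p 7.5e-07). At 4 weeks it had 96.4, 98 and 68.3 CPM in libraries labelled cKO, against 79, 90.8 and 116 CPM in control libraries. The ranges overlapped, and the difference was not called (log2 -0.12 ± 0.173, adjusted p 0.62).

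Ache, which ends the signal by splitting acetylcholine, had 69.3, 78.7 and 71.3 CPM in libraries labelled cKO at 4.5 weeks, against 216, 246 and 251 CPM in control libraries. It had the smallest error of the 10 genes, with a log2 fold change of -1.70 ± 0.0732 (adjusted p 1.1e-09). At 4 weeks it had 191, 198 and 210 CPM in libraries labelled cKO, against 222, 241 and 229 CPM in control libraries. The groups did not overlap, and the log2 fold change of -0.21 ± 0.0709 was called (adjusted p 0.036). With 1 library of 4 weeks left out, it was no longer called in 4 cases: control library 2 (-0.18, adjusted p 0.114), control library 3 (-0.21, 0.0702), library 1 labelled cKO (-0.19, 0.0677) and library 2 labelled cKO (-0.20, 0.0941). The library kit does not mark strand. Ache shares exon bases with an annotated long non-coding RNA on the opposite strand, and reads of the shared bases cannot be told apart with this kit.

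The transcription factors were low in whole cord. Mnx1 (also known as HB9) had 1.44, 0.602 and 0.365 CPM in libraries labelled cKO at 4.5 weeks, against 4.29, 4.07 and 4.16 CPM in control libraries. These rest on 58, 22 and 13 counts in libraries labelled cKO and on 171, 157 and 186 counts in control libraries. The control libraries were close together and the libraries labelled cKO differed among themselves more widely, and the log2 fold change was -2.36 ± 0.361 (adjusted p 7.6e-05). It was -3.10 without library 1 labelled cKO (adjusted p 1.96e-06) and -2.02 without library 3 labelled cKO (adjusted p 0.000198). At 4 weeks Mnx1 had 3.98, 4.29 and 2.66 CPM in libraries labelled cKO, against 3.58, 3.85 and 4.3 CPM in control libraries. The groups overlapped and the difference was not called (log2 -0.10 ± 0.328, adjusted p 0.84).

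Isl1 had 1.14, 1.42 and 1.63 CPM in libraries labelled cKO at 4.5 weeks, against 6.95, 2 and 2.08 CPM in control libraries. Control library 1 was more than 3 times as high as the other control libraries. The log2 fold change was -1.39 ± 0.403 (adjusted p 0.0083). Without that library it was -0.55 (adjusted p 0.0329), and without control libraries 1 and 2 it was -0.59 and not called (adjusted p 0.0864). At 4 weeks Isl1 had 2.21, 2.47 and 2.37 CPM in libraries labelled cKO, against 2.22, 2.25 and 2.61 CPM in control libraries. The ranges nearly coincided, and the log2 difference was -0.01 ± 0.395 (adjusted p 0.99, with a 95% interval of -0.86 to 0.85).

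Isl1 is also expressed by sensory neurons of the dorsal root ganglia. The summed level of 7 markers of those neurons (Avil, Trpv1, Scn10a, Scn11a, Mrgprd, Prdm12 and P2rx3) was 15, 16.6 and 13 CPM in libraries labelled cKO at 4.5 weeks, against 90.8, 2.31 and 2.48 CPM in control libraries. The control library with the high sum is the one with the high Isl1. Scn10a, a sodium channel of pain-sensing neurons, had 0, 0.219 and 0.0281 CPM in libraries labelled cKO and 27.2, 0.0519 and 0.0224 CPM in control libraries. Most of the 4.5-week sum in cords labelled cKO was Avil, at 11.5, 13.1 and 10.1 CPM, and Trpv1, at 2.41, 2.14 and 1.66 CPM. P2rx3 had 0.944, 0.903 and 1.12 CPM in those libraries, against 6.13, 1.82 and 1.39 CPM in control libraries. At 4 weeks the summed level was 20, 29.5 and 27.6 CPM in libraries labelled cKO, against 1.75, 1.97 and 2.92 CPM in control libraries. Most of the 4-week sum in cords labelled cKO was Avil, at 15.5, 23.5 and 21.3 CPM, and Trpv1, at 2.9, 4.29 and 4.6 CPM, while the sodium channels Scn10a and Scn11a and the receptor Mrgprd were at 0.177 CPM or below in those libraries. The part of ganglion transcripts in the Isl1 values was not tested beyond the fits without control libraries 1 and 2.

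**Figure D2:**
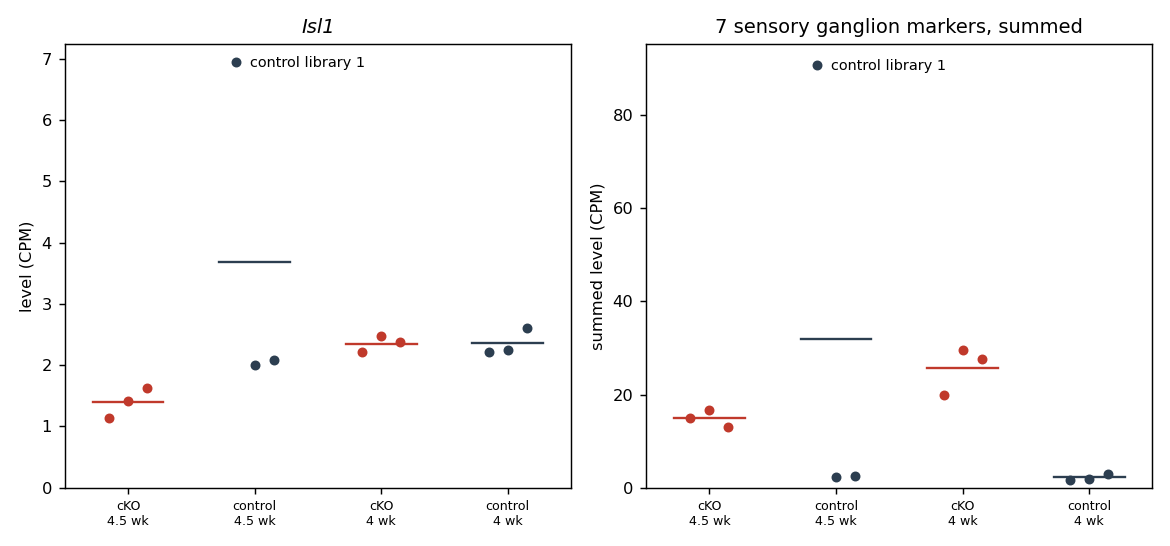
Level of Isl1 (left, CPM) and the summed level of 7 sensory ganglion markers (right, CPM) in every library of the 4 groups, on linear axes from 0, with points for libraries and bars for means (n = 3). Control library 1 of 4.5 weeks stands highest in both panels, at 6.95 CPM for Isl1 and 90.8 CPM for the markers. In libraries labelled cKO most of the marker sum was Avil and Trpv1.

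Among the genes of motor neuron kinds, Chodl, a membrane protein of fast alpha motor neurons, fell the furthest. It had 7.57, 8.02 and 5.25 CPM in libraries labelled cKO at 4.5 weeks, against 47.6, 43.4 and 40.9 CPM in control libraries. No library of one group came near the other, and the log2 fold change was -2.66 ± 0.159 (adjusted p 1.5e-08). Only 174 of the 19278 genes tested, 0.903%, had a lower one. At 4 weeks Chodl had 33.6, 24.9 and 24.8 CPM in libraries labelled cKO, against 36.6, 43.3 and 37.8 CPM in control libraries. The groups did not overlap, and the log2 fold change of -0.50 ± 0.146 was called (adjusted p 0.017). It was not called, at a log2 fold change of -0.43 each time, with control library 2 left out (adjusted p 0.0665), without library 2 labelled cKO (0.068) and without library 3 labelled cKO (0.0724).

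Mmp9, a secreted metalloproteinase, had 3.4, 2.68 and 3.14 CPM in libraries labelled cKO at 4.5 weeks, against 14.9, 14.9 and 14.4 CPM in control libraries. Both groups were tight, and the log2 fold change was -2.26 ± 0.154 (adjusted p 4.7e-08). At 4 weeks it had 11.8, 11.7 and 8.59 CPM in libraries labelled cKO, against 12.1, 15.6 and 12.1 CPM in control libraries. Again without overlap, the log2 difference of -0.31 ± 0.143 was not called (adjusted p 0.11). Neutrophils also make Mmp9. The summed level of 8 neutrophil markers was 9.79 to 12.1 CPM in libraries labelled cKO at 4.5 weeks and 7.83 to 17.2 CPM in control libraries, and 1 of the 7 markers tested was called, lower, with 0 to 3 called under the alternatives.

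Vipr2 had 1.64, 2.16 and 1.26 CPM in libraries labelled cKO at 4.5 weeks, against 9.74, 7.24 and 9.42 CPM in control libraries. With no overlap between the groups, the log2 fold change was -2.38 ± 0.273 (adjusted p 5.7e-06). At 4 weeks it had 7.05, 3.94 and 3.44 CPM in libraries labelled cKO, against 5.26, 6.15 and 6.37 CPM in control libraries. Library 1 labelled cKO was the highest of the 6, and the difference was not called (log2 -0.30 ± 0.256, adjusted p 0.39). Without that library it was -0.70 and was called (adjusted p 0.0202).

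Esrrg had 13.9, 16.4 and 19.1 CPM in libraries labelled cKO at 4.5 weeks, against 83.5, 84.3 and 89.7 CPM in control libraries. The groups were far apart, and the log2 fold change was -2.38 ± 0.143 (adjusted p 1.6e-08). At 4 weeks it had 40.5, 37.9 and 34.1 CPM in libraries labelled cKO, against 46.4, 43 and 63.1 CPM in control libraries. The groups did not overlap, and the log2 fold change of -0.44 ± 0.136 was called (adjusted p 0.023). It was not called without control library 3 (-0.26, adjusted p 0.11), without library 2 labelled cKO (-0.45, 0.0539) and without library 3 labelled cKO (-0.38, 0.0882).

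Sex was unequal at 4 weeks, since the control libraries were male and libraries 1 and 2 labelled cKO were female. The male library 3 labelled cKO was the lowest of its group for 8 of the 10 genes. Its Chodl level of 24.8 CPM compares with 36.6 to 43.3 CPM in the male controls, and its Slc18a3 level of 76.3 CPM with 63.4 to 76.8 CPM. With a sex term in the 4-week comparison, Chodl stayed called (log2 -0.66, adjusted p 0.0432) and Mmp9 was called (-0.63, 0.026). Ache (-0.13, 0.382) and Esrrg (-0.58, 0.0572) were no longer called. Only the group labelled cKO at 4 weeks held both sexes, so the sex term was estimated there alone. The values with this term thus rest on library 3 labelled cKO against the male controls, and cannot settle the part of sex.

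**Figure D3:**
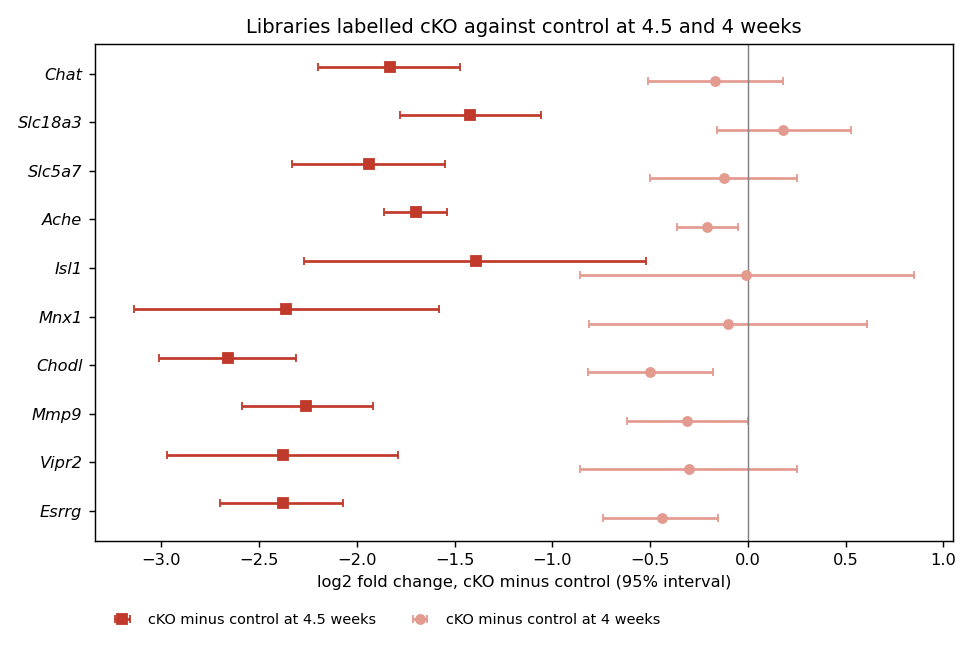
Log2 fold change of libraries labelled cKO minus control libraries for each of the 10 genes, with squares for 4.5 weeks, circles for 4 weeks and lines for 95% intervals (n = 3 per group). At 4.5 weeks all 10 values lie between -2.66 and -1.39, and at 4 weeks they lie between -0.50 and 0.18. The value of -1.39 is that of Isl1, which was -0.55 without control library 1 of 4.5 weeks.

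The difference between the cKO and control groups was deeper at 4.5 weeks than at 4 weeks for 9 of the 10 genes, by a test of the difference itself in the same edgeR fit. In that test 21.9% of all genes were called lower and 40.7% in either direction. The change in log2 fold change was between -1.49 (Ache, adjusted p 5.2e-07) and -2.26 (Mnx1, adjusted p 0.0024) for the 9 genes, and -1.39 for Isl1, which was not called (adjusted p 0.067). Isl1 depended on the 4.5-week controls, being -0.55 without control library 1 (adjusted p 0.139), and -1.68 and called without control library 2 (0.0237) or 3 (0.0275). It was also called at -1.39 with no filter on low counts (0.0406) and by DESeq2 (0.04). With a sex term the same 9 genes were called. That term was estimated only within the group labelled cKO at 4 weeks, so it could not test sex among the controls.

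Within the cords labelled cKO, 9 of the 10 genes were lower at 4.5 weeks than at 4 weeks, against 28.8% of all genes called lower and 56.0% called in either direction. The log2 change was deepest for Mnx1 (-2.16 ± 0.362, adjusted p 0.00022) and Chodl (-1.99 ± 0.158, adjusted p 3.7e-07). Slc5a7 changed least of the 9, with 43.7 ± 8.74 CPM at 4.5 weeks and 87.6 ± 16.7 CPM at 4 weeks (SD, n = 3 each, adjusted p 0.00033 in the edgeR fit). Isl1 was not called (-0.75 ± 0.405, adjusted p 0.13), though it was without control library 1 of 4.5 weeks (-0.75, adjusted p 0.00419).

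Between the control groups, Slc5a7 (log2 0.81 ± 0.173, adjusted p 0.0083) and Esrrg (0.76 ± 0.135, adjusted p 0.0038) were higher at 4.5 weeks than at 4 weeks. Among all genes 9.53% were called higher, 7.21% lower and 16.7% in either direction in this comparison. Slc5a7 averaged 167 ± 13.3 CPM in 4.5-week and 95.3 ± 19 CPM in 4-week controls, and Esrrg averaged 85.8 ± 3.36 CPM in 4.5-week and 50.8 ± 10.8 CPM in 4-week controls (SD, n = 3 each). With a sex term in the edgeR fit, Slc5a7 (0.30, adjusted p 0.741) and Esrrg (0.56, 0.464) were not called. Without control libraries 1 and 2 of 4.5 weeks, which leaves 1 control library there, Slc5a7 was 0.68 and Esrrg 0.82. Chat was not called (0.48, adjusted p 0.056) but was in 8 of 22 alternatives, at adjusted p from 0.0173, namely with no filter on low counts, with a filter of 1 CPM, by DESeq2, by limma-voom, and without control library 3 of 4 weeks, library 1 labelled cKO of 4 weeks, or library 1 or 3 labelled cKO of 4.5 weeks. The 4.5-week controls were female and the 4-week controls male, so time and sex cannot be told apart here.

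Genes of neurons in general were lower too. Of 15 such genes 15 were called lower at 4.5 weeks, where 32.6% of all genes were, with a median log2 fold change of -1.28. At 4 weeks 6 were called lower, where 17.2% of all genes were, with a median of -0.25. The 4-week count was 3 without control library 3 of 4 weeks, without library 2 or without library 3 labelled cKO of 4 weeks, 10 without library 1 labelled cKO of 4.5 weeks, and 1 with a sex term. The lowest of them at 4.5 weeks was Snap25, a synaptic vesicle fusion protein, at -2.01 ± 0.104 (adjusted p 4.6e-09), and it was singled out after its value was seen. Snap25 had 464, 600 and 651 CPM in libraries labelled cKO at 4.5 weeks, against 2212, 2295 and 2379 CPM in control libraries. 5 of the 10 motor neuron and cholinergic genes had a log2 fold change below that of Snap25, namely Chodl, Vipr2, Esrrg, Mnx1 and Mmp9.

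Taken per 1000 counts of the 15 general neuronal genes in the same library, 7 of the 10 genes were lower at 4.5 weeks with no overlap between the groups, against 2.92% of the 19249 distinct gene symbols tested, while 85% of those were higher without overlap on this scale. The 7 were Slc5a7, Ache, Chodl, Mnx1, Mmp9, Vipr2 and Esrrg. The 15 general neuronal genes themselves summed to 3405 to 3802 CPM in libraries labelled cKO, against 8900 to 9656 CPM in control libraries. This lower divisor moves every gene upward on this scale in libraries labelled cKO, and the shares of 2.92% and 85% reflect it. Chodl had 2.22, 2.11 and 1.4 counts per 1000 in libraries labelled cKO, against 5.35, 4.79 and 4.24 in control libraries. Esrrg had 4.08, 4.31 and 5.08 in libraries labelled cKO, against 9.38, 9.31 and 9.29 in control libraries. Chat, Slc18a3 and Isl1 overlapped between the groups on this scale, Chat with 3.95, 2.94 and 2.28 in libraries labelled cKO and 4.7, 4.57 and 3.63 in control libraries. Slc18a3 had 12, 8.97 and 5.95 in libraries labelled cKO, against 10.3, 9.95 and 8.16 in control libraries, so that library 1 labelled cKO was the highest of the 6. At 4 weeks none of the 10 was lower without overlap, and Slc18a3 was higher without overlap, at 10.3, 11.1 and 9.56 in libraries labelled cKO and 7.22, 8.63 and 8.51 in control libraries, against 10.6% of all symbols lower and 37.6% higher without overlap.

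**Figure D4:**
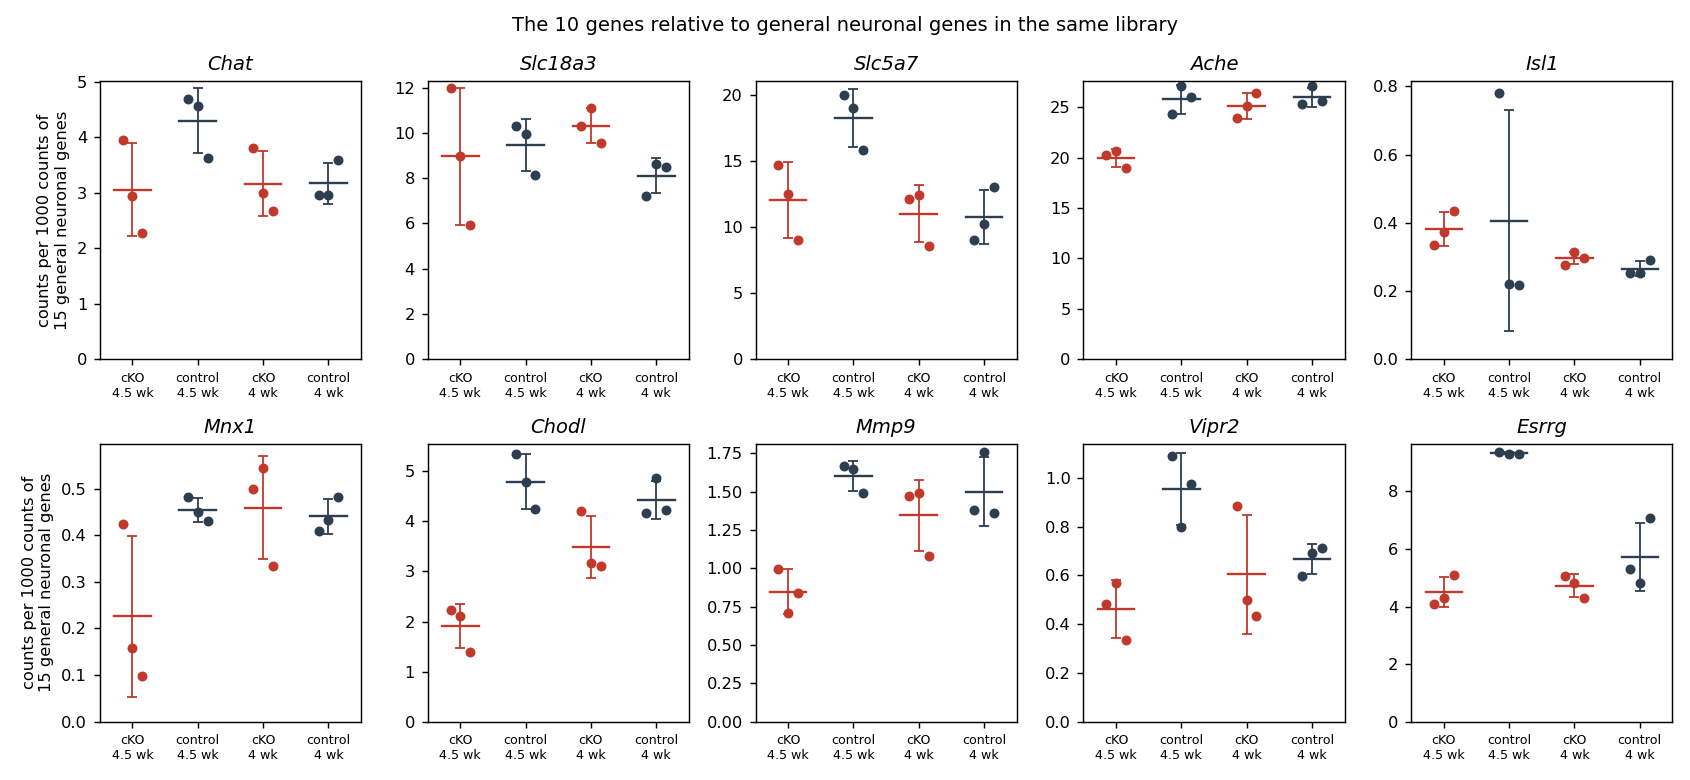
Counts of each of the 10 genes per 1000 counts of 15 general neuronal genes in the same library, on linear axes from 0, with points for libraries, long bars for means and error bars for SD (n = 3). At 4.5 weeks 7 genes lie lower in libraries labelled cKO with no overlap, while Chat, Slc18a3 and Isl1 overlap.

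Ratios of the genes to each other within a library, which do not depend on scaling, were compared in 16 tests, and none passed. At 4.5 weeks the counts of Slc18a3 over those of Chat were 3.03, 3.05 and 2.62 in libraries labelled cKO, against 2.2, 2.18 and 2.25 in control libraries. Chodl over Chat was 0.564, 0.718 and 0.615 in libraries labelled cKO, against 1.14, 1.05 and 1.17 in control libraries. Neither ratio overlapped between the groups, and each gave an exact two-sided permutation p of 0.1, the smallest that 3 against 3 animals allow, or 0.32 after adjustment. The Ache over Chat ratio overlapped at 4.5 weeks, with 5.16, 7.05 and 8.36 in libraries labelled cKO and 5.17, 5.93 and 7.18 in control libraries (exact permutation p 0.7). Chat over Snap25 overlapped too, with 0.0289, 0.0186 and 0.0131 in libraries labelled cKO and 0.0189, 0.018 and 0.0147 in control libraries. Chat over Tubb3 did not, with 0.0384, 0.0315 and 0.0275 in libraries labelled cKO and 0.0661, 0.0763 and 0.0588 in control libraries.

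Per length, the genes kept much of their order. In 4.5-week controls Ache was highest at 51.4 ± 4.08 CPM per kilobase of annotated exon, followed by Slc18a3 at 36 ± 2.97 and Slc5a7 at 29.7 ± 2.36 (SD, n = 3). Esrrg followed at 13.8 ± 0.54 CPM per kilobase. Chat at 8.38 ± 0.815 and Chodl at 8.01 ± 0.618 overlapped. Mmp9 at 4.16 ± 0.0865 came next, and Vipr2, Mnx1 and Isl1 were lowest, at 1.97, 1.86 and 0.929 CPM per kilobase, Vipr2 overlapping with Mnx1 and Isl1 overlapping with Vipr2. In the cords labelled cKO at 4.5 weeks the order began with Ache at 15.8 ± 1.08, Slc18a3 at 13.4 ± 3.87 and Slc5a7 at 7.74 ± 1.55 CPM per kilobase. Ache overlapped there with Slc18a3, Esrrg at 2.65 overlapped with Chat at 2.35, and Chodl at 1.27 overlapped with Mmp9 at 0.869. Vipr2, Mnx1 and Isl1 were at 0.378, 0.357 and 0.353 CPM per kilobase and were not separated.

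Other genes that handle acetylcholine and choline moved both ways. Of 8 such genes 4 were lower and 3 higher at 4.5 weeks (median log2 fold change -0.60). At 4 weeks 3 were lower and 1 higher (median -0.18). Among all genes tested 32.6% were called lower and 33.3% higher at 4.5 weeks, and 17.2% and 20.1% at 4 weeks. The same shares stand beside the counts of the lists that follow. Lynx1, which codes for a modulator of nicotinic receptors, had 177, 190 and 177 CPM in libraries labelled cKO at 4.5 weeks, against 444, 441 and 497 CPM in control libraries (log2 -1.35 ± 0.065, adjusted p 2.6e-09). The groups were far apart. Chkb, a choline kinase that feeds phospholipid synthesis, was higher, with 39.9, 38.7 and 36.6 CPM in libraries labelled cKO and 18.7, 18.7 and 18.8 CPM in control libraries (log2 1.03 ± 0.0651, adjusted p 2.3e-08). Colq, the collagen tail that anchors acetylcholinesterase at synapses (-1.80), Slc10a4, a vesicle protein of cholinergic neurons (-1.53), and Prima1, the membrane anchor of acetylcholinesterase (-0.94), were the other 3 lower genes, and they are named because the count is small. The other higher genes were Chka, another choline kinase (0.33), and Slc44a1, a choline transporter (0.24). Slc44a1 was not called without any 1 of the 3 control libraries, or without library 1 or 3 labelled cKO, of 4.5 weeks (0.13 to 0.26, adjusted p 0.0513 to 0.183). At 4 weeks Slc44a1 was among the lower genes (log2 -0.68 ± 0.092, adjusted p 0.00011). It averaged 149 ± 15.4 CPM there in cords labelled cKO and 238 ± 6.9 CPM in control cords (SD).

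Among acetylcholine receptor subunits 15 of 21 genes were tested. At 4.5 weeks 11 were lower and 1 higher, with a median log2 fold change of -1.22. At 4 weeks 4 were lower and 1 higher, with a median of -0.35. The 4-week total of 5 became 3 without control library 1 or 3 and 2 without library 2 or 3 labelled cKO or with a sex term. Chrm2, the muscarinic M2 receptor, had 17.2, 19.1 and 21.5 CPM in libraries labelled cKO at 4.5 weeks, against 80.9, 86.4 and 85.8 CPM in control libraries (log2 -2.13 ± 0.114, adjusted p 5.7e-09). The groups were far apart. The deepest fall was that of Chrna2, a nicotinic subunit used as a marker of Renshaw cells, the interneurons that motor neuron collaterals contact. It had 0.323, 0.575 and 0.0281 CPM in libraries labelled cKO, against 5.57, 4.72 and 5.17 CPM in control libraries (log2 -4.04 ± 0.463, adjusted p 5.5e-06), and it was singled out after its values were seen. It was -4.80 without library 2 labelled cKO. The 1 higher gene was Chrnb1, the beta subunit of the muscle-type receptor, at log2 1.57 ± 0.352 (adjusted p 0.0016), or 2.21 without control libraries 1 and 2.

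Of 12 other genes of motor neuron and cholinergic interneuron specification 11 were tested, 10 transcription factors and the retinoic acid enzyme gene Aldh1a2. At 4.5 weeks 5 were lower and 2 higher (median log2 fold change -0.92), and at 4 weeks 2 were lower and 2 higher (median 0.02). Without control libraries 1 and 2 the 4.5-week total of 7 became 4, all lower, and with a sex term the 4-week total of 4 became 2. Lhx4, a LIM homeodomain factor of motor neurons, had 1.66, 2.19 and 1.26 CPM in libraries labelled cKO at 4.5 weeks, against 10.8, 10.8 and 9.4 CPM in control libraries (log2 -2.60 ± 0.199, adjusted p 1.4e-07). The groups did not overlap. Isl2, the close relative of Isl1, had 1.14, 0.876 and 0.617 CPM in libraries labelled cKO, against 9.29, 3.42 and 3.54 CPM in control libraries (log2 -2.61 ± 0.391, adjusted p 6.2e-05), and control library 1 was again the high one. Without that library it was -1.98 (adjusted p 3.56e-05), and without control libraries 1 and 2 it was -2.01 (0.000377). It was singled out for that library. Etv1, an ETS factor, was already lower at 4 weeks, with 35.4, 25.8 and 26.2 CPM in libraries labelled cKO and 76.8, 76.3 and 79.8 CPM in control libraries (log2 -1.42 ± 0.107, adjusted p 1.1e-06). The higher genes at 4.5 weeks were Etv4 (log2 0.47) and Foxp1 (0.19). Etv4 was not called without control libraries 1 and 2 (0.40, adjusted p 0.0534), and Foxp1 was not called in 11 of the alternatives (0.16 to 0.23, adjusted p 0.0504 to 0.133). Among these were the fits without control library 2 or 3 or any 1 library labelled cKO of 4.5 weeks, and without library 2 or 3 labelled cKO of 4 weeks.

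Of 20 other genes enriched in motor neurons or their kinds, 15 were lower and 3 higher at 4.5 weeks (median log2 fold change -1.02), and 2 were lower and 2 higher at 4 weeks (median -0.02). The 4-week total of 4 became 8 without library 1 labelled cKO and 7 by DESeq2. The neurofilament genes Nefm and Nefl, which code for structural proteins of large axons, were among the lower. Nefm had 758, 725 and 577 CPM in libraries labelled cKO at 4.5 weeks, against 3603, 3315 and 3290 CPM in control libraries (log2 -2.31 ± 0.114, adjusted p 3.2e-09). Nefl averaged 821 ± 70.3 CPM in cords labelled cKO and 3198 ± 140 CPM in control cords (SD, n = 3 each). Spp1 (osteopontin), which marks alpha motor neurons and is also made by activated microglia and macrophages, was higher, with 3845, 5769 and 5806 CPM in libraries labelled cKO and 151, 133 and 136 CPM in control libraries (log2 5.20 ± 0.297, adjusted p 1e-08). The other higher genes were Pard3b (0.66) and Tns1 (0.28), and Tns1 was not called without control library 3 (0.20, adjusted p 0.0666) or library 1 labelled cKO (0.21, 0.063) of 4.5 weeks.

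Of 13 genes known to rise in injured motor or sensory neurons, 8 were higher and none lower at 4.5 weeks (median log2 fold change 0.49), and 4 were higher and none lower at 4 weeks (median 0.06), or 2 with a sex term. Atf3, a stress-induced transcription factor, had 67.8, 66.4 and 43.9 CPM in libraries labelled cKO at 4.5 weeks, against 1.68, 1.22 and 1.1 CPM in control libraries (log2 5.48 ± 0.507, adjusted p 7.5e-07). At 4 weeks it had 9.72, 34.7 and 23.1 CPM in libraries labelled cKO, against 1.46, 4.15 and 1.48 CPM in control libraries (log2 3.29 ± 0.467, adjusted p 0.00016). Without control library 2 of 4 weeks the 4-week value was 3.93. Its groups did not overlap at either time. Glia and immune cells can also express Atf3 and several other genes of this list. The summed level of 8 markers of macrophages and activated microglia was 4088 to 4166 CPM in libraries labelled cKO at 4.5 weeks, against 34.6 to 42 CPM in control libraries, with 8 of 8 called higher. That of 7 markers of mature oligodendrocytes was 7793 to 8338 CPM in libraries labelled cKO, against 19736 to 20095 CPM in control libraries, with 7 of 7 called lower. The part of these cell types in the values above was not tested.

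**Figure D5:**
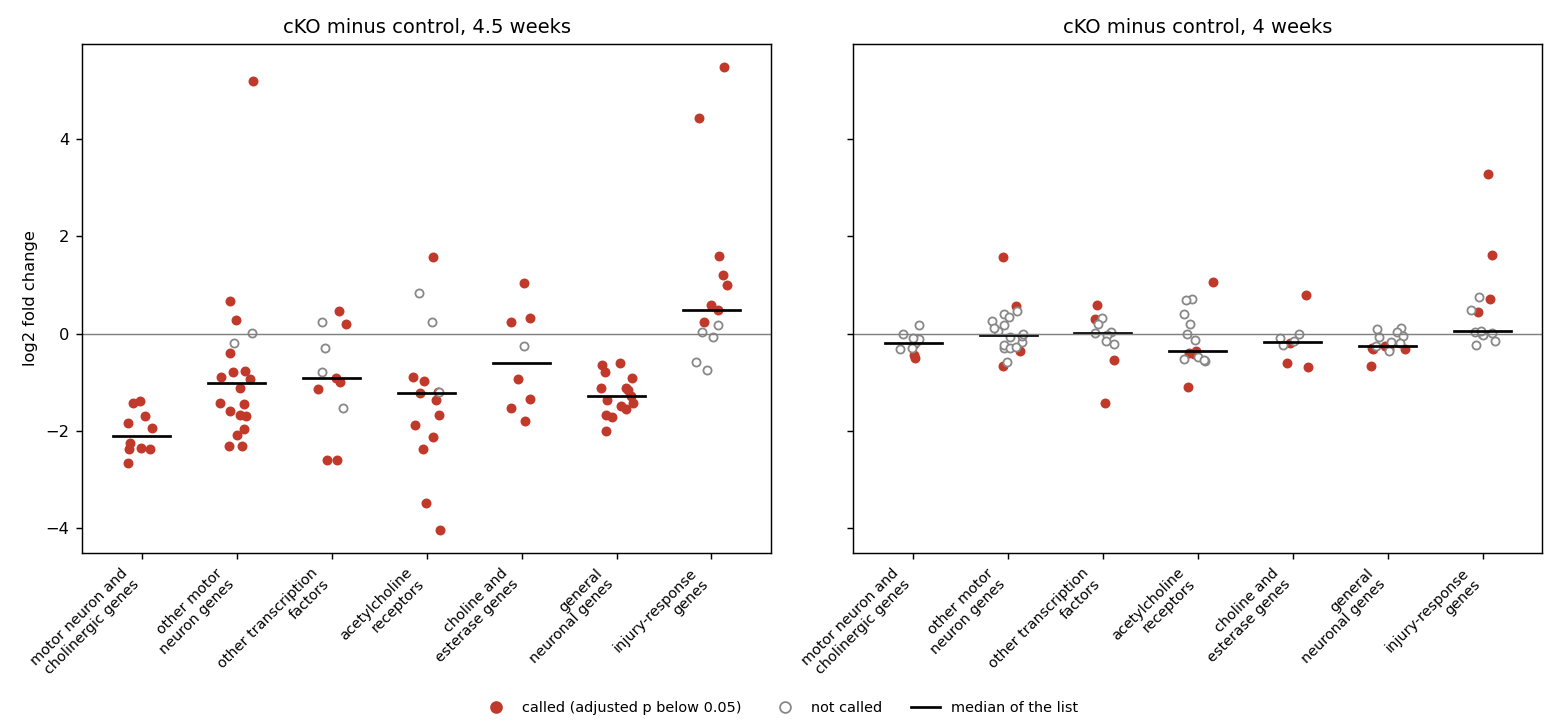
Log2 fold change of libraries labelled cKO minus control libraries for every tested gene of 7 gene groups at 4.5 weeks (left) and 4 weeks (right), with filled points for called genes, open points for genes not called and black bars for group medians. The 10 motor neuron and cholinergic genes have medians of -2.10 at 4.5 weeks and -0.19 at 4 weeks, and the 15 general neuronal genes have medians of -1.28 and -0.25.

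Across the 12 libraries the log2 CPM of the 10 genes ran together, with a Pearson correlation of 0.561 to 0.978 over their 45 pairs and a median of 0.911. With the group means subtracted the 45 correlations were -0.564 to 0.862, with a median of 0.159. Points in these correlations share libraries, and the differences between groups make up most of the first set of values. Among the 13741 genes whose log2 CPM averaged 0 or more, the 5 most like Chat were Fgf1 (0.989), Pdgfd (0.987), Kcng1 (0.984), Mest (0.984) and Nefh (0.981). Of the other 9 genes Slc5a7 ranked highest by this likeness, at 17 (0.969), and Isl1 lowest, at 3939 (0.661). Fgf1, an acidic fibroblast growth factor gene, had 146, 144 and 123 CPM in libraries labelled cKO at 4.5 weeks, against 431, 382 and 387 CPM in control libraries. Its log2 fold change of -1.54 ± 0.104 was called (adjusted p 4.4e-08), and it was not called at 4 weeks (-0.16 ± 0.102, adjusted p 0.25). With group means subtracted, the 5 most like Chat were Lifr (0.95), Zfp773 (0.949), Myoc (0.94), Atf7 (0.934) and Acaca (0.932), and Slc5a7 ranked 69 (0.851).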

How the data were processed

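The authors deposited a table of genes by libraries for either time, holding estimated counts without scaling for depth or length. The submitters' processing notes name STAR, RSEM and mm39 without versions, and the annotation release is not given in the sources used here. Per the labels' protocols, RNA of 3 independent animals per group was turned into TruSeq v2 mRNA libraries, a kind that loses the strand. Table columns were assigned by the time of their table and by their names, which left 0 columns unassigned. Per library 3.25% to 3.81% of the values were not whole, and all were rounded. Gene symbols that had been turned into dates were restored for 27 genes, and 6753 genes had no symbol.

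Genes were filtered with filterByExpr, scaled by TMM and fitted with edgeR 4.0.16 (R 4.3.3, limma 3.58.1) as 1 mean per group over all 12 libraries, with quasi-likelihood tests and Benjamini-Hochberg adjustment over 19278 genes. Genes with an adjusted p below 0.05 count as called, and intervals of fold changes are at 95%. CPM are counts per 1000000 of each library's total multiplied by its TMM factor (0.937 to 1.06), and log2 CPM for correlations used a prior count of 2. Counting error is covered by the fits, and low genes such as Isl1 and Mnx1 rest on few counts. The alternatives were DESeq2 1.42.0 (its test, or its size factors in edgeR), limma-voom, upper quartile scaling, other filters on low counts, each time alone, a replicate block, a sex term, Chat and Slc18a3 summed, and libraries left out. The fitting script was tested on simulated data.

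The genes and the lists were chosen with earlier results of these data known. Apart from the 10 genes and Ddx20, those named are up to 2 called genes of smallest p per list and comparison, markers of other cell types, the 5 genes most like Chat by each measure, and the exceptions stated. The labels do not say whether replicate numbers pair animals, and the main fit did not pair them. Promoter sequences are RefSeq's, on GRCm38.p6, and exon lengths and gene overlaps come from GENCODE M21. Neither is the build of the deposited tables. One gene of the sensory ganglion markers and 1 of the oligodendrocyte markers are not reported here and are left out of the sums. The alternatives for named genes outside the 10 were added after the data were seen.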

Additional observations from a re-analysis of the deposited data

Results flagged for a closer look

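For 9 of the 10 genes the difference between the cKO and control groups differed between 4.5 and 4 weeks, tested as an interaction in edgeR's quasi-likelihood fit with Benjamini-Hochberg adjustment over all genes tested. The change in log2 fold change, 4.5 minus 4 weeks, was -1.67 for Chat (adjusted p 9.5e-05), -1.61 for Slc18a3 (0.00012), -1.81 for Slc5a7 (8.4e-05) and -1.49 for Ache (5.2e-07). It was -2.16 for Chodl (7e-06), -2.26 for Mnx1 (0.0024), -1.94 for Mmp9 (1.3e-05), -2.08 for Vipr2 (0.00067) and -1.94 for Esrrg (8e-06). In this test 40.7% of all genes were called. The controls of the 2 times differed in sex, and with a sex term each of the 9 was called, the value nearest to 0 being -1.44 for Chat. Only the group labelled cKO at 4 weeks held both sexes, so that term could not test sex among the controls.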

How the results depend on the processing

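At 4.5 weeks each of the 10 genes kept its direction and its call under every alternative run, except that Isl1 was -0.59 and not called without control libraries 1 and 2. The count of called genes at 4 weeks, 3, was 0 to 3 when 1 library was left out, and the cause of the lost calls was not tested. Between the control groups the count of 2 became 0 with a sex term and 0 without control libraries 1 and 2 of 4.5 weeks, and the cause was not tested. It was 2 or 3 when 1 library was left out, and 3 with no filter on low counts, a filter of 1 CPM, DESeq2 or limma-voom, with Chat as the third. Several log2 fold changes near 0 changed sign without being called. At 4 weeks Isl1 was 0.00 with upper quartile scaling, 0.01 with a filter of 1 CPM, 0.00 with the replicate block, 0.01 with a sex term, and -0.05 to 0.07 with 1 library left out. With 1 library left out Slc5a7 was -0.24 to 0.04 and Mnx1 -0.23 to 0.08 at 4 weeks, and Chat was 0.09 when summed with Slc18a3. Between the control groups a sex term gave -0.07 for Chodl, -0.54 for Mnx1, -0.30 for Mmp9 and -0.10 for Vipr2. Isl1 was -0.18 there without control libraries 1 and 2 of 4.5 weeks and -0.21 to 0.93 with 1 library left out, the lowest being that without control library 1 of 4.5 weeks.

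Replicate numbers are shared by the groups, and the labels do not say whether they pair animals. Deviations of same-numbered libraries from their group means correlated at -0.165 to 0.205. With 3 libraries per group these values cannot settle whether animals were paired. With the replicate block 3 genes were called at 4 weeks and 10 at 4.5 weeks. Fitting each time alone gives no comparison between times, and Slc18a3 has no value where it was summed with Chat. No other scaling moved the median log2 fold change of all genes by more than 0.1. Isl1 rested on 46 to 58 counts in libraries labelled cKO at 4.5 weeks and Mnx1 on 13 to 58, and the part of counting error in their spread was not tested.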
